A study of Mus musculus with 6 samples.

Results

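The genes described here encode the machinery that builds, caps, cuts, bundles and anchors actin filaments in blood cells. They were chosen by name: 46 mouse genes were listed, comprising the cytoplasmic actins, the Arp2/3 complex and its activators, coronins, monomer-binding and severing proteins, plastins, kindlins, talin, the ezrin, radixin and moesin family, class I myosins and vimentin. The deposited table held a row for 45 of them among its 25628 gene symbols. Fermt2 was not analysed here. Of the 45, 42 passed the filter on low counts and were tested, and Evl, Enah and Pls3 did not pass it.

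Polyadenylated RNA was sequenced from TgSpi1 erythroleukaemic cells of the mouse (#722), which are leukaemic, of the erythroid lineage, come from bone marrow and overexpress SPI1, the transcription factor PU.1. The cells grew with EPO and carried a doxycycline-inducible shRNA against Spi1. Of the 6 cultures, 3 were left untreated (Dox_Untreated) and 3 were given doxycycline for 48 h (Dox_Treated). The labels call them biological replicates and name a single leukaemia, #722, so that p-values measure the spread between these cultures, not between leukaemias. No group used here had doxycycline without the shRNA, so the knockdown and the drug cannot be told apart.

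Actin filaments grow by adding monomers that profilin delivers, and new branches start where the Arp2/3 complex, switched on by proteins of the WASP and WAVE families, sits on an existing filament. Cofilin, twinfilin, gelsolin and their relatives cut or cap filaments and return monomers. Blood cells use their own versions of several of these proteins, such as WASP, HEM1, HS1, coronin 1A, L-plastin and kindlin-3, which serve migration, adhesion and phagocytosis, while most other tissues use N-WASP, NAP1, cortactin, coronins 1B and 1C, T-plastin and kindlin-2.

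Total counts lay between 78926663 and 101276319 per library. Spi1 stood at 366 ± 43.8 CPM (SD, n = 3; CPM is the count scaled to a common library size by edgeR's TMM method) untreated and at 75.8 ± 12.0 CPM with doxycycline (SD, n = 3), with no overlap of the groups. All 10 listed erythroid markers had counts, and their summed level was between 3032 and 4525 CPM in untreated libraries and between 4508 and 6299 CPM with doxycycline. Most of this sum came from Tfrc, the transferrin receptor (2101 and 3099 CPM on average), so it mainly follows that 1 gene. Markers of other cells were low or absent for stroma and endothelium (6 of 7 markers under 1 CPM in every library, summed level between 0.241 and 1.87 CPM), B cells (6 of 7 under 1 CPM) and T or NK cells (4 of 5). Neutrophil markers summed to between 0.623 CPM in replicate 1 and 43.8 CPM in replicate 2 untreated and to between 0.274 and 11.5 CPM, in the same replicates, with doxycycline, and 5 of 10 stayed under 1 CPM in every library. Monocyte and macrophage markers summed to between 22.3 and 31.9 CPM untreated and between 17.1 and 23.4 CPM with doxycycline, most of it from Ccr2 (19.3 and 18.2 CPM on average). Mast cell and basophil markers summed to between 4.05 and 62.5 CPM and between 8.96 and 50.9 CPM, most of it from Fcer1a (32.9 and 27.4 CPM on average). Megakaryocyte and platelet markers summed to 309, 219.5 and 81.2 CPM untreated and to 161, 123 and 47.2 CPM with doxycycline. In bulk RNA, fewer cells of a type and less RNA per cell cannot be told apart.

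Of the 42 tested genes, 10 fell with doxycycline and none rose (edgeR's quasi-likelihood test, Benjamini-Hochberg adjusted p under 0.05 over all 14158 genes tested). Over all genes 2.18% were called lower and 0.417% higher, against 23.8% of the tested members called lower. Those 10 were Arpc1b, Was, Nckap1l, Hcls1, Coro1a, Twf2, Capg, Vasp, Lcp1 and Vim. At an unadjusted p under 0.05, 2 members were higher and 20 lower, where 5.86% of all genes were higher and 9.56% lower. DESeq2 called 1 member, Nckap1, higher and 15 lower, and 2.06% of all genes higher and 5.1% lower. The median log2 fold change (doxycycline over untreated throughout) was -0.46 over the 42 and 0.0065 over all genes tested. With the replicate number as an additional factor, called the replicate block, 25 members fell and 2, Nckap1 and Cfl2, rose, where 15.6% of all genes were lower and 10.3% higher. These 25 included all 10 of the fit without the block.

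**Figure D1:**
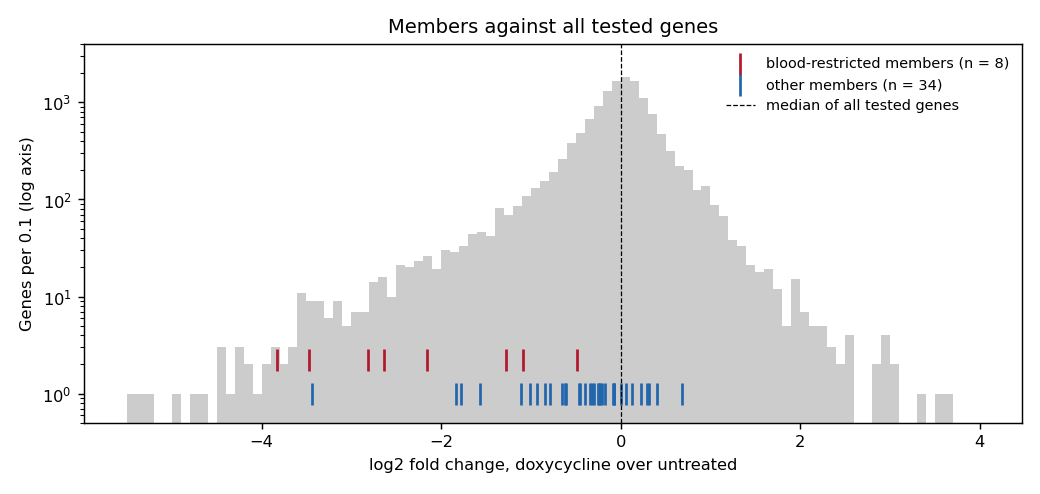
Histogram of the log2 fold change of all 14158 tested genes, with a log axis for the number of genes, and a tick for each tested member. The 8 blood-restricted members all lie below 0, with a median of -2.4, and the 34 other members have a median of -0.31.

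Leaving out 1 library kept between 2 and 9 of the 10 calls. Without untreated replicate 1 or doxycycline replicate 1, 2 remained, without untreated replicate 2, 3 remained, without doxycycline replicate 2, 5 remained, and 8 and 9 remained without doxycycline replicate 3 and untreated replicate 3. Arpc1b and Hcls1 passed in each of these fits. The groups did not overlap in CPM, in the lower direction, for 20 of the 42 members, against 11.7% of all genes, and in the higher direction for 2, against 8.88%. Within every pair of equal replicate number 30 members were lower with doxycycline, against 29.4% of all genes, and 4 were higher, against 28.0%.

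A subset of 8 members was set apart as blood-restricted from general knowledge: Was, Nckap1l, Hcls1, Coro1a, Lcp1, Fermt3, Myo1f and Myo1g. This subset was chosen with earlier results of these data known. Without the block 5 of these 8 fell, against 2.18% of all genes, and with it all 8 fell, against 15.6%. Their summed level was 1191, 1129.8 and 971 CPM in untreated replicates 1, 2 and 3 and 504, 589 and 449 CPM with doxycycline. Among the monocyte and macrophage markers Fcgr1, an Fc receptor, fell too (1.20 ± 0.197 CPM untreated and 0.153 ± 0.121 with doxycycline, SD, n = 3; adjusted p = 0.037), and Cd68, Lyz2 and Cd14 fell with the block, so that 4 of the 6 tested were lower in that fit. Over all genes 15.6% were lower with the block. The part of these markers in the members' values was not tested. Of the 34 other tested members 5 fell without the block, against 2.18% of all genes. With it 17 fell and 2 rose, against 15.6% and 10.3%.

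**Figure D2:**
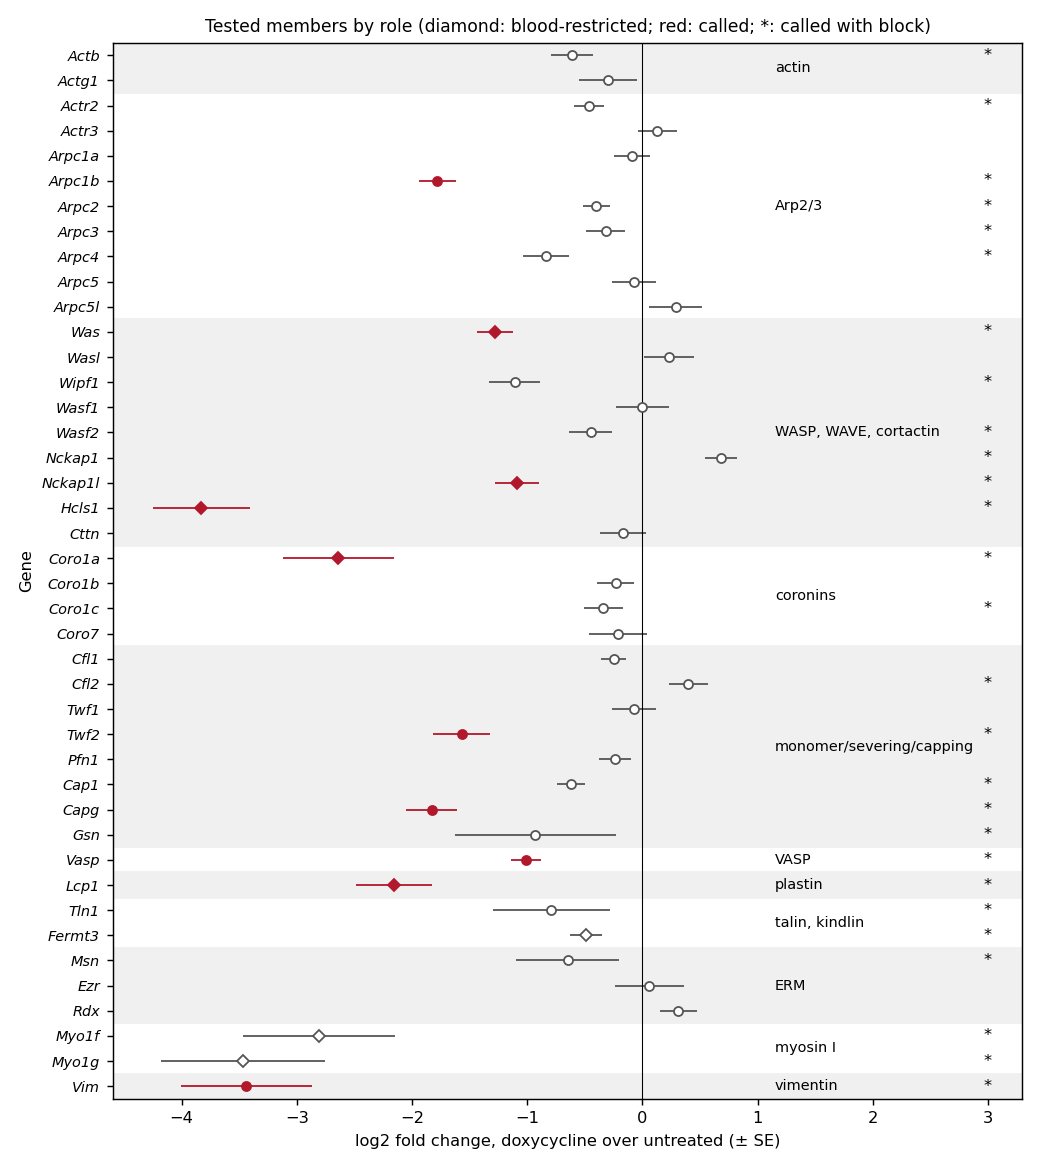
Log2 fold change of each tested member with its standard error, by role, for doxycycline over untreated (3 libraries each). Red symbols passed the test without the block, stars mark those that passed with it, and diamonds are the blood-restricted genes, which include the lowest value, that of Hcls1 at -3.83.

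Promoter sequences are shown for the blood-restricted genes that fell without the block and had a window in the RefSeq table (GRCm38.p6), and for the neighbours Arpc1b and Arpc1a. They are shown because PU.1 and other ETS factors bind DNA at the core GGAA. Of the 46 genes 39 had a window. Each sequence is the 250 bases before an annotated start, 5′ to 3′ on the strand of the gene, with GGAA on either strand (TTCC when read on the other) in capitals. The window farther upstream is shown for Coro1a and Lcp1, which have 2.
Hcls1, chr16:36934733-36934982, plus strand: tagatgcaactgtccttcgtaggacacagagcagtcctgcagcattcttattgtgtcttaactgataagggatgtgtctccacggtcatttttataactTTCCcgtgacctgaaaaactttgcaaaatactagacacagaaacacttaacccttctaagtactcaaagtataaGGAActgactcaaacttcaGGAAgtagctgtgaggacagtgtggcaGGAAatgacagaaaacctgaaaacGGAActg
Was, chrX:8090492-8090741, minus strand: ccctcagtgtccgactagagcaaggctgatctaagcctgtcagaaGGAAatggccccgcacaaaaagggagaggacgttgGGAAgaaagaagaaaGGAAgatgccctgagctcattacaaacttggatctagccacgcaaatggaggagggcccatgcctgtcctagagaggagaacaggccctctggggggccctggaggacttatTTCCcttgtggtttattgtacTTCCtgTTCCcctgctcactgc
Coro1a, chr7:126704817-126705066, minus strand: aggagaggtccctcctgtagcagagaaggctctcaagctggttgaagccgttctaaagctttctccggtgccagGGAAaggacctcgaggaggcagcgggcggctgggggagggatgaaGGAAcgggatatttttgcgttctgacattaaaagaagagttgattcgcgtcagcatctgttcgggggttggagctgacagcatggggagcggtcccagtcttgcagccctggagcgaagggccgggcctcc
Lcp1, chr14:75130873-75131122, plus strand: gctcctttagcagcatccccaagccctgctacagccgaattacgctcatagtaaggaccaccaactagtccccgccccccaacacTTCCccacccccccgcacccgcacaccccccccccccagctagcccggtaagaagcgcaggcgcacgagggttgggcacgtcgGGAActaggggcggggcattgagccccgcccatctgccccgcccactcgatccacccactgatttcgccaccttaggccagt
Arpc1b, chr5:145114006-145114255, plus strand: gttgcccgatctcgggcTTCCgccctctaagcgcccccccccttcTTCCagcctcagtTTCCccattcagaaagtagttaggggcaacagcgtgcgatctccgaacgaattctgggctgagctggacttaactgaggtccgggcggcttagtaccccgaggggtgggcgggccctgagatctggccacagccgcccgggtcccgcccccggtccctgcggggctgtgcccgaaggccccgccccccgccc
Arpc1a, chr5:145083619-145083868, plus strand: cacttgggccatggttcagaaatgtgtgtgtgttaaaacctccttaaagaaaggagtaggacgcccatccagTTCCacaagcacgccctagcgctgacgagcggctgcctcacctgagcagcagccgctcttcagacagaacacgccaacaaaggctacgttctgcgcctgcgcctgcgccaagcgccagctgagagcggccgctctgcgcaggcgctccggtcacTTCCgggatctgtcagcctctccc

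The core GGAA occurred 5 times in the Hcls1 window, 6 times in that of Was, 2 times each in those shown for Coro1a and Lcp1 and 4 times each in the other window of these genes, 3 times in that of Arpc1b and 2 times in that of Arpc1a. The median over all 32851 windows was 3, and 93.4% of them held at least 1. The longer form GAGGAA, searched on both strands and containing the core, was in 0 of the 9 windows of 7 blood-restricted genes and in 23.3% of all windows. Among the members it was found for 9 genes, 23.1% of those with a window, against 25.9% of all genes with a window. Of these 9, Vim alone fell without the block. With the block, where 15.6% of all genes fell, Vim, Gsn, Wipf1, Tln1, Cap1 and Msn fell and Cfl2 rose. Rdx was not called in either fit, and Evl was not tested. The form GAGGAAGT was in none of the 49 member windows and in 2.44% of all windows. These are matches of letters in short windows, and say nothing of binding.

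Neither of the 2 actin genes passed without the block. Actb, beta-actin, was the most abundant member per length, at 523 ± 71.9 CPM per kb of annotated exon untreated and 343 ± 70.5 with doxycycline (SD, n = 3 each). Its CPM were 1275, 1624 and 1307 in untreated replicates 1, 2 and 3 and 831, 1134 and 788 with doxycycline. Every doxycycline library was below every untreated one. It had a log2 fold change of -0.61 (SE 0.18, adjusted p = 0.16), and with the block Actb fell (-0.62, adjusted p = 0.0011). Actg1, gamma-actin, had 54.4, 57.8 and 66.8 CPM untreated and 38.5, 38.9 and 67.7 CPM with doxycycline, where replicate 3 was level with its untreated partner. Its log2 fold change of -0.30 (SE 0.25) did not pass without the block (adjusted p = 0.66) or with it (adjusted p = 0.060). Actin genes have processed copies elsewhere in the genome, and how reads matching several places were counted is not given in the sources used here.

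Of the 9 Arp2/3 genes 1 passed without the block, where 2.18% of all genes were called lower. Arpc1b (ENSMUSG00000029622) encodes one of the alternative p41 subunits, the one that predominates in blood cells, and was lower with doxycycline within every replicate number. It had 325, 266 and 278 CPM in untreated replicates 1, 2 and 3 and 90.0, 93.1 and 70.7 CPM with doxycycline, a 3.42-fold lower mean with no overlap of the groups. On the log2 scale the change was -1.78 (SE 0.16, adjusted p = 0.0058).

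Arpc1a encodes the other p41 subunit and lies next to Arpc1b on the same strand of chromosome 5, with 5453 bp between the annotated genes (145083830 to 145108761 and 145114215 to 145130705, GRCm38). Arpc1a had 196, 145 and 169 CPM untreated and 165, 141 and 172 CPM with doxycycline, with overlapping groups (a log2 change of -0.09 ± 0.16 SE at adjusted p = 0.86). Of the pair's level per length, Arpc1b made up 46.2 ± 1.53% untreated and 21.1 ± 3.93% with doxycycline (SD, n = 3 each). These shares depend on the annotated exon lengths, 5115 bp for Arpc1b and 2567 bp for Arpc1a. The log2 ratio of Arpc1b to Arpc1a in CPM, not scaled by length, was 0.73, 0.87 and 0.71 untreated and -0.87, -0.59 and -1.28 with doxycycline. Its change of -1.69 had the smallest p that 3 against 3 libraries allow (exact two-sided permutation test, p = 0.1). Arpc1b shares 931 bp of exon with Pdap1 on the opposite strand, and the kit does not mark the strand, so the split of reads between them is uncertain. Pdap1 stood at 227 and 228 CPM in the 2 groups.

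The remaining Arp2/3 genes did not pass without the block. Arpc4 had 272, 192 and 224 CPM untreated and 136, 98.8 and 150.3 CPM with doxycycline, without overlap (a log2 change of -0.84 ± 0.20 SE at adjusted p = 0.092, and 2.4e-04 once blocked). In the blocked fit, where 15.6% of all genes fell, Arpc4, Actr2 (-0.46), Arpc2 (-0.41) and Arpc3 (-0.32) fell besides Arpc1b. Actr2 encodes ARP2, one of the 2 actin-like subunits. The other, ARP3, is encoded by Actr3, which stood at 305 ± 51.8 and 334 ± 44.7 CPM (log2 fold change 0.13, adjusted p = 0.81, and 0.30 with the block). Arpc5 and Arpc5l, alternative p16 subunits, had log2 fold changes of -0.07 (adjusted p = 0.92) and 0.29 (adjusted p = 0.65) and did not pass with the block. The direction of Arpc5 and of Arpc1a depended on which libraries were kept. Summed over the 9 genes the complex stood at 2827 ± 238 CPM untreated and at 2193 ± 242 CPM with doxycycline (SD, n = 3 each).

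**Figure D3:**
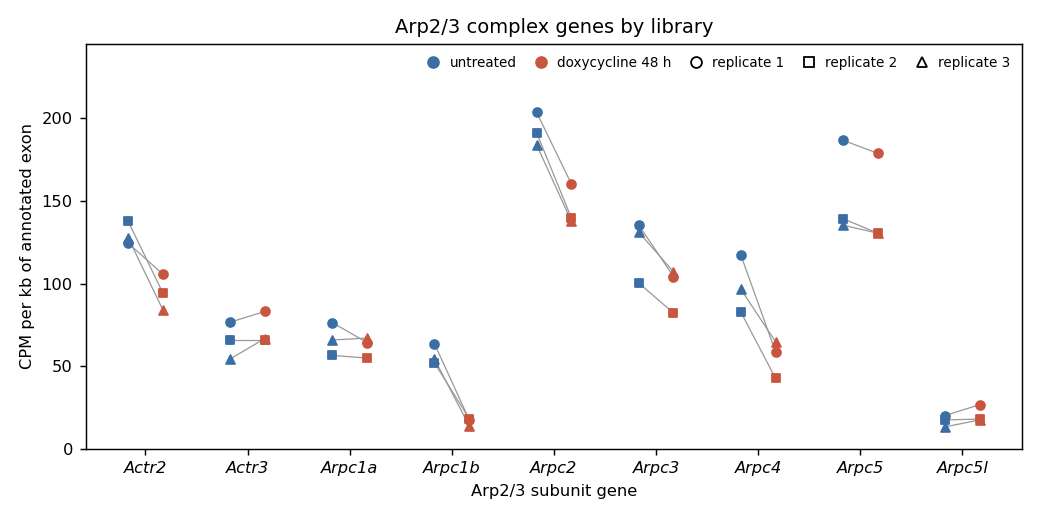
CPM per kb of annotated exon for the 9 Arp2/3 genes in each of the 6 libraries, with lines between equal replicate numbers. Arpc1b goes from 56.6 ± 6.12 to 16.5 ± 2.38 (SD, n = 3), while Arpc1a is at 66.3 ± 9.97 and 62.1 ± 6.44.

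Among the activators of Arp2/3, the blood forms Was, Nckap1l and Hcls1 fell, and Wasl, Nckap1 and Cttn were not called lower. Was (ENSMUSG00000031165) encodes WASP, the activator mutated in Wiskott-Aldrich syndrome. It had 135, 131 and 121 CPM in untreated replicates 1, 2 and 3 and 55.4, 59.7 and 44.1 CPM with doxycycline. All 3 doxycycline libraries were below all untreated ones (a log2 change of -1.28 ± 0.16 SE at adjusted p = 0.014). Wasl, which encodes the broadly expressed N-WASP, had 18.3, 24.5 and 19.3 CPM untreated and 23.9, 30.2 and 18.8 CPM with doxycycline. Its groups overlapped (a log2 change of 0.23 ± 0.22 SE at adjusted p = 0.72, and 0.20 with the block). The log2 ratio of Was to Wasl differed by -1.50, and by -1.66, -1.43 and -1.41 within the 3 replicate numbers.

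Wipf1 encodes WIP, the partner that stabilises WASP. It had 136, 144 and 107 CPM untreated and 64.7, 72.0 and 43.4 CPM with doxycycline, again without overlap. Its log2 fold change of -1.11 (SE 0.22) missed the threshold without the block (adjusted p = 0.051), and Wipf1 fell with the block (adjusted p = 2.3e-05).

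Nckap1l encodes HEM1, the blood form of a scaffold of the WAVE complex, and Nckap1 encodes the NAP1 form used elsewhere. Nckap1l had 109, 128 and 95.1 CPM in untreated replicates 1, 2 and 3 and 54.3, 59.9 and 41.9 CPM with doxycycline (a log2 change of -1.09 ± 0.19 SE at adjusted p = 0.031). Nckap1 had 39.3, 48.9 and 48.4 CPM untreated and 75.1, 74.0 and 69.3 CPM with doxycycline. The groups of both genes were apart, in opposite directions. For Nckap1 the log2 fold change was 0.68 (SE 0.14, adjusted p = 0.061), and it rose with the block (adjusted p = 0.0010). DESeq2 called Nckap1 higher without the block (adjusted p = 0.0011). Nckap1l was above Nckap1 per length in the untreated libraries and below it with doxycycline: its share of the pair went from 66.9 ± 4.16% to 37.2 ± 3.42% (SD, n = 3 each). The log2 ratio differed by -1.92, -1.68 and -1.69 within the replicate numbers.

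The WAVE proteins themselves are encoded by Wasf1 and Wasf2. Wasf2, the more abundant, stood at 193 ± 30.4 and 141 ± 29.6 CPM (log2 fold change -0.45, adjusted p = 0.32) and fell with the block (adjusted p = 0.0029). Wasf1, best known from the brain, stood at 15.8 ± 1.93 and 15.8 ± 4.15 CPM (SD, n = 3 each).

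Hcls1 had the lowest log2 fold change of the 42. It encodes HS1, the cortactin of blood cells, which binds Arp2/3 and filaments. In untreated replicates 1, 2 and 3 it had 8.96, 10.7 and 8.40 CPM, and with doxycycline 0.373, 0.545 and 1.05 CPM. The means differed 14.2-fold, and the log2 fold change was -3.83 (SE 0.42, adjusted p = 0.010). Cttn, cortactin itself, had 71.4, 90.5 and 74.4 CPM untreated and 63.9, 88.1 and 57.4 CPM with doxycycline, with overlapping groups (a log2 change of -0.17 ± 0.20 SE at adjusted p = 0.78). Hcls1 was the lesser of the pair throughout, with 17.2, 16.4 and 15.8% of the level per length untreated and 0.959, 1.02 and 2.96% with doxycycline. The change in their log2 ratio was -2.94 over all libraries, and -2.15 within replicate number 3 against -3.28 and -3.39 within 1 and 2. With 0.1 or 1 CPM added in place of 0.5 it was -3.55 or -2.47.

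Coronins bind filaments and Arp2/3 and help to take branches apart. Coro1a, the leukocyte coronin, had 389, 274 and 169.8 CPM in untreated replicates 1, 2 and 3 and 65.0, 48.3 and 20.0 CPM with doxycycline. The groups did not overlap, and in each group replicate 1 was highest and replicate 3 lowest. The log2 fold change was -2.64 (SE 0.48, adjusted p = 0.036), and -2.58, -2.50 and -3.08 within the replicate numbers. The summed megakaryocyte and platelet markers had the same order of replicates in each group, most of it from Pf4 (260, 165 and 37.4 CPM untreated). Of these markers Pf4 alone had this order in both groups. Itgb3 had the reverse order (9.39, 9.87 and 17.1 CPM untreated), and Itga2b and Gp1ba were highest in replicate 2. The summed mast cell and basophil markers (62.5, 36.8 and 4.05 CPM untreated) also had the order of Coro1a, most of it from Fcer1a (61.3, 34.8 and 2.65 CPM untreated). The other markers of that list were far lower, and Cpa3 was highest in replicate 2 and Mcpt4 in replicate 3 of each group. The part of these markers in the result was not tested.

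The broad coronins Coro1b and Coro1c stood at 113 ± 20.5 and 96.9 ± 7.07 CPM and at 181 ± 14.0 and 143 ± 26.8 CPM (SD, n = 3 each), with log2 fold changes of -0.23 (adjusted p = 0.61) and -0.34 (adjusted p = 0.40). Coro1c fell with the block (adjusted p = 0.018) and Coro1b did not pass it (adjusted p = 0.16). Coro1b shares 432 bp of exon with Ptprcap, a leukocyte gene that fell from 16.5 to 2.66 CPM, so its level is uncertain to that extent. Coro7, which acts at the Golgi, had a log2 fold change of -0.21 (adjusted p = 0.79). The log2 ratio of Coro1a to Coro1b differed by -2.49 and that to Coro1c by -2.35, each without overlap of the groups. Per length, Coro1a made up 72.7 ± 5.47% of its pair with Coro1b untreated and 33.2 ± 12.9% with doxycycline (SD, n = 3 each).

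**Figure D4:**
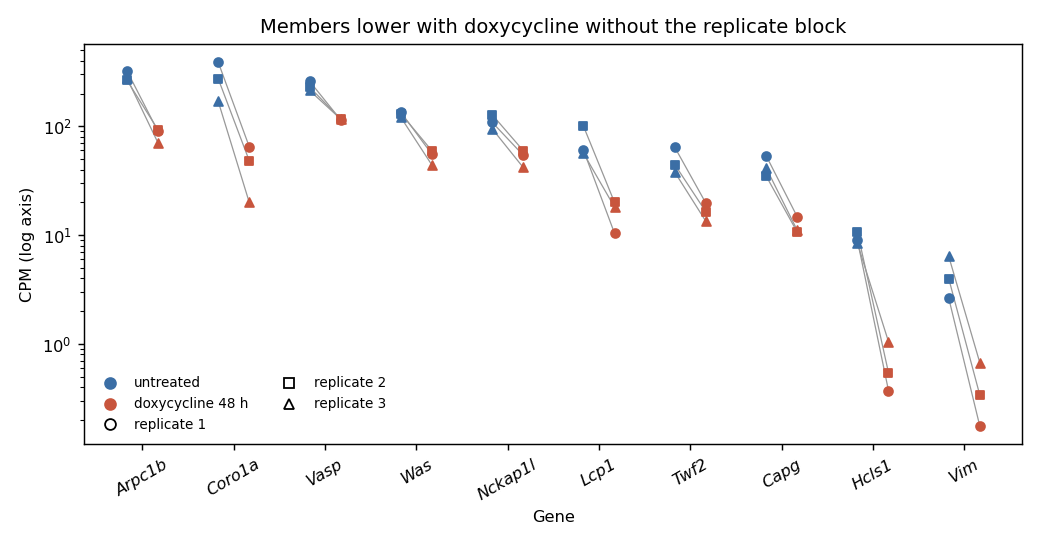
CPM on a log axis for the 10 members that fell without the block, in each library, with lines joining equal replicate numbers. No doxycycline library reaches an untreated one for any of the 10, from Arpc1b at 289.7 against 84.6 CPM on average to Vim at 4.32 against 0.396 CPM.

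Proteins that bind monomers or cut and cap filaments gave a mixed picture. Capg encodes a gelsolin relative of macrophages and other cells that caps filaments without cutting them. It had 53.8, 35.0 and 41.6 CPM in untreated replicates 1, 2 and 3 and 14.8, 10.7 and 11.1 CPM with doxycycline, without overlap (a log2 change of -1.83 ± 0.22 SE at adjusted p = 0.014). Gelsolin, Gsn, cuts as well as caps. It had 228, 146 and 50.3 CPM untreated and 119, 84.1 and 20.2 CPM with doxycycline. The groups overlapped, while within each number the doxycycline library was the lower. The log2 fold change of Gsn was -0.93 (SE 0.70, adjusted p = 0.63), and with the block Gsn fell (-1.02, adjusted p = 1.1e-04). The order of replicates of Gsn was that of the summed megakaryocyte and platelet markers, mostly Pf4, and of the summed mast cell and basophil markers, mostly Fcer1a. Their part was not tested.

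Twf2 encodes twinfilin-2, which binds monomers and filament ends. It had 64.2, 44.5 and 37.9 CPM in untreated replicates 1, 2 and 3 and 19.7, 16.4 and 13.4 CPM with doxycycline (a log2 change of -1.57 ± 0.25 SE at adjusted p = 0.025). Its relative Twf1 had 92.1, 103 and 87.4 CPM and 98.9, 103 and 67.0 CPM, with overlap (log2 fold change -0.07, adjusted p = 0.92). The ratio of Twf2 to Twf1 was lower in each doxycycline library than in any untreated one, with a change of -1.43 on the log2 scale. Leaving out doxycycline replicate 3 turned the direction of Twf1 (0.11, adjusted p = 0.85).

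Cfl1, the main cofilin of non-muscle cells, and Pfn1, profilin 1, followed Actb in level per length, at 348 ± 15.9 and 302 ± 33.7 CPM per kb untreated (SD, n = 3 each). Cfl1 had 1014, 1016 and 936 CPM in untreated replicates 1, 2 and 3 and 816, 817 and 862 CPM with doxycycline. The groups were apart by a small distance (a log2 change of -0.25 ± 0.11 SE at adjusted p = 0.36, and 0.080 with the block). Pfn1 had a log2 fold change of -0.24 (adjusted p = 0.49, and 0.10 with the block). Cfl2, the cofilin of muscle, was far lower, at 15.3 ± 1.94 CPM untreated and 20.1 ± 1.65 CPM with doxycycline, and rose with the block (0.40, adjusted p = 0.040; adjusted p = 0.31 without). Cap1, which speeds monomer recycling together with cofilin, had 397, 414 and 370.3 CPM untreated and 266, 272 and 233 CPM with doxycycline. It missed the threshold without the block (a log2 change of -0.62 ± 0.12 SE at adjusted p = 0.052) and fell with it (adjusted p = 5.1e-04).

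Of the Ena/VASP proteins, which keep filament ends growing, Vasp alone had an appreciable level. Its CPM were 260.2, 229.9 and 214 in untreated replicates 1, 2 and 3 and 115, 117 and 117 with doxycycline. The doxycycline libraries lay close together (SD 1.34 CPM) and below the untreated ones (a log2 change of -1.01 ± 0.13 SE at adjusted p = 0.014). Evl, often abundant in lymphoid cells, and Enah reached deposited counts of no more than 4 and 2 in any library, where 1 is the smallest value in the table. No fold change is given for them.

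The bundling protein L-plastin is encoded by Lcp1, which fell. It had 60.5, 100.3 and 56.6 CPM in untreated replicates 1, 2 and 3 and 10.4, 20.0 and 18.1 CPM with doxycycline, without overlap (a log2 change of -2.16 ± 0.33 SE at adjusted p = 0.022). Its highest library, untreated replicate 2, was also the one with the highest summed neutrophil markers (43.8 CPM). The part of these markers was not tested. The log2 fold changes within the replicate numbers were -2.54, -2.32 and -1.65. Pls3, T-plastin, had deposited counts of no more than 12, so that Lcp1 made up 99.9% of the pair per length untreated and 99.2% with doxycycline.

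Fermt3, kindlin-3, which activates integrins in blood cells, had the smallest log2 fold change of the blood-restricted genes. It had 474, 470.1 and 514 CPM in untreated replicates 1, 2 and 3 and 317, 399 and 323 CPM with doxycycline. The groups were apart, but the log2 fold change of -0.49 (SE 0.14) did not pass without the block (adjusted p = 0.13) and passed with it (adjusted p = 0.0061). Tln1, talin, the partner of kindlin at integrins, had 233, 542 and 380.4 CPM untreated and 125, 407 and 137 CPM with doxycycline, and replicate 2 was highest in each group. Its log2 fold change was -0.79 (SE 0.51, adjusted p = 0.55), and it fell with the block (-0.93, adjusted p = 0.0023).

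The ezrin, radixin and moesin proteins tie filaments to the plasma membrane. Msn, moesin, had 694, 774 and 335 CPM in untreated replicates 1, 2 and 3 and 468, 506 and 172 CPM with doxycycline, with overlapping groups and the lowest value in replicate 3 of each (a log2 change of -0.65 ± 0.45 SE at adjusted p = 0.59). It fell with the block (-0.71, adjusted p = 7.0e-04). Ezr stood at 165 ± 48.4 and 172 ± 55.4 CPM (log2 fold change 0.06, adjusted p = 0.96, and 0.66 with the block), and its direction turned without untreated replicate 3 or doxycycline replicate 2. Rdx had 367, 456 and 400 CPM untreated and 528, 564 and 424 CPM with doxycycline, higher within each number (log2 fold change 0.31, adjusted p = 0.42, and 0.053 with the block). The log2 ratio of Msn to Ezr was between 1.61 and 1.97 untreated and between 0.60 and 1.39 with doxycycline, a change of -0.77.

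The class I myosins of leukocytes link membrane to actin. Myo1g had 14.2, 15.0 and 4.83 CPM in untreated replicates 1, 2 and 3 and 1.24, 1.56 and 0.271 CPM with doxycycline. The mean was 11.1-fold lower with doxycycline, and replicate 3 was lowest in each group. The log2 fold change of -3.47 (SE 0.71) just missed the threshold without the block (adjusted p = 0.054), passed without untreated replicate 3 (-3.83, adjusted p = 0.045) and passed with the block (-3.57, adjusted p = 1.6e-06). Its broader relative Myo1d, not among the 46, stood at 175 ± 26.6 and 132 ± 23.1 CPM (log2 fold change -0.41, adjusted p = 0.36), was lower within each replicate number and fell with the block (adjusted p = 0.0051). The log2 ratio of Myo1g to Myo1d differed by -2.52, and by -3.03 and -2.13 with 0.1 and 1 CPM added in place of 0.5.

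Myo1f was near the limit of detection. Its deposited counts reached 40 at most, at 0.374, 0.510 and 0.303 CPM untreated and 0.0110, 0.0308 and 0.120 CPM with doxycycline. It had a log2 fold change of -2.81 (SE 0.66, adjusted p = 0.084), and -4.12 (adjusted p = 0.031) without doxycycline replicate 3, the highest of its group. It fell with the block (adjusted p = 0.0035). The related Myo1e was as low, at 0.436 ± 0.103 and 0.333 ± 0.0267 CPM (SD, n = 3 each), and the change in their log2 ratio was -0.53 with 0.5 CPM added, -1.43 with 0.1 and -0.30 with 1.

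Vim, vimentin, an intermediate filament protein rather than an actin regulator, was low and fell. It had 2.63, 3.98 and 6.37 CPM in untreated replicates 1, 2 and 3 and 0.176, 0.339 and 0.673 CPM with doxycycline, a 10.9-fold difference of the means. On the log2 scale the change was -3.44 (SE 0.57, adjusted p = 0.028). Within the replicate numbers it was -3.90, -3.55 and -3.24. The summed stromal and endothelial markers were 1.22, 1.48 and 0.384 CPM untreated and 1.87, 1.25 and 0.241 CPM with doxycycline, most of it from Dcn in replicates 1 and 2. Their part in the values of Vim was not tested.

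Ratios of related genes were compared in 16 of 18 listed pairs. Fermt3 with Fermt2 was not analysed here, and Evl with Enah was at or under the floor of 3 counts. In all 8 pairs with a blood-restricted gene the log2 ratio to its relative was lower in every doxycycline library than in any untreated one, and so it was in 5 of the 8 other pairs. Each blood-restricted gene in the first 8 pairs was itself lower without overlap, as were 11.7% of all genes, so the ratios partly restate its values. Changes in the first 8 ran from -0.53 for Myo1f with Myo1e to -2.94 for Hcls1 with Cttn. For 13 pairs the exact two-sided permutation p was 0.1, the smallest that 3 against 3 libraries can give, and 0.12 adjusted over the 16 pairs, so no ratio could pass 0.05. The exceptions were Capg with Gsn (change -0.77, exact p = 0.5), Wasf2 with Wasf1 (-0.43, exact p = 0.2) and Actb with Actg1 (-0.28, exact p = 0.7), whose direction turned without doxycycline replicate 3 (0.09). The change for Capg with Gsn was -0.18 without untreated replicate 3, -0.41, -0.43 and -1.48 without doxycycline replicates 1, 2 and 3, and that for Wasf2 with Wasf1 -0.23 without doxycycline replicate 1. For Actb with Actg1 it was -0.15 without untreated replicate 2 and -0.57 without doxycycline replicate 2. All ratios come from the same 6 libraries, and the pairs of Coro1a share a gene.

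**Figure D5:**
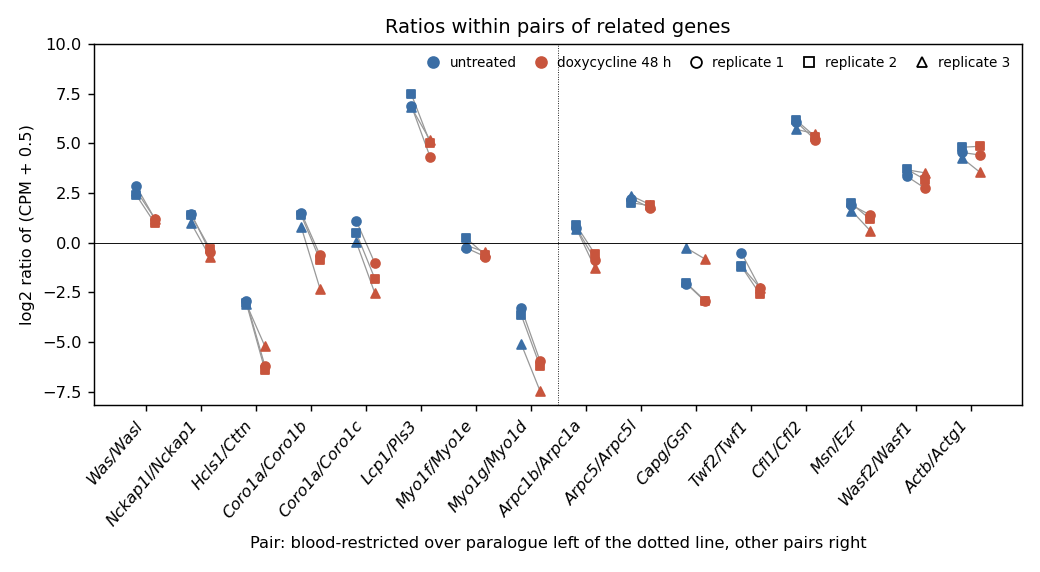
Log2 ratio of (CPM + 0.5) within 16 pairs of related genes in each library, blood-restricted gene over relative to the left of the dotted line and other pairs to the right, with lines joining equal replicate numbers. All 8 pairs on the left have their 3 doxycycline values below their 3 untreated values, as for Nckap1l with Nckap1, which goes from 1.27 ± 0.27 to -0.50 ± 0.21.

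Other genes of actin control were taken from a list of 83, of which 80 had a row and 71 were tested. Without the block 7, or 9.86% of the tested against 2.18% of all genes, fell and none rose (23 lower and 2 higher at an unadjusted p under 0.05; DESeq2 called 14 lower and none higher), and with the block 40 fell and 3 rose, where 15.6% and 10.3% of all genes did. Their median log2 fold change was -0.41. Called lower were 2 without untreated replicate 1 or 2, 4 without untreated replicate 3, 0 without doxycycline replicate 1 and 3 without doxycycline replicate 2 or 3. Dock2, which activates RAC in leukocytes, had 130.3, 206 and 124 CPM in untreated replicates 1, 2 and 3 and 20.7, 28.8 and 19.6 CPM with doxycycline (a log2 change of -2.74 ± 0.26 SE at adjusted p = 0.0064). All 3 doxycycline values were far below the untreated ones. Rac2, the blood form of RAC, went from 600.4 ± 15.7 to 307 ± 24.5 CPM (log2 fold change -0.97, adjusted p = 0.014) and the broad Rac1 from 291 ± 12.0 to 186 ± 16.3 CPM (-0.64, adjusted p = 0.044; SD, n = 3 each).

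Also called lower were Arhgdib (log2 fold change -0.91, adjusted p = 0.019), Rhoh, a GTPase of blood cells (-1.38, adjusted p = 0.025), and Rhog (-1.02, adjusted p = 0.034). The last of the 7 was Gmfg, a leukocyte protein that removes Arp2/3 branches, which went from 4.24, 3.45 and 1.71 CPM in untreated replicates 1, 2 and 3 to 0.241, 0.195 and 0.211 CPM (a log2 change of -3.85 ± 0.41 SE at adjusted p = 0.010). Its 3 doxycycline values were nearly equal. Over the 6 fits that left out 1 library, Rac1, Arhgdib and Rhog lost the call in all. Rhoh lost it in 5, Rac2 in 3, and Dock2 and Gmfg in 1 each. The formin Fhod1 was next in order (a log2 change of -1.09 ± 0.24 SE at adjusted p = 0.070) and fell with the block (adjusted p = 6.6e-04). In the class of capping and monomer-binding proteins, to which Gmfg belongs, 1 of 12 fell without the block and 7 with it. Without the block, against 2.18% of all genes lower, no formin (7 tested), cofilin kinase or phosphatase (5), crosslinker or tropomyosin (8), plaque protein (3), myosin (10), WAVE or WASP partner (11) or SRF factor (3) was called. With the block, against 15.6%, 5 formins, 2 cofilin kinases or phosphatases, 3 crosslinkers or tropomyosins, 1 plaque protein, 5 myosins, 5 WAVE or WASP partners and 2 SRF factors fell, and 1 cofilin kinase or phosphatase, 1 crosslinker or tropomyosin and 1 WAVE or WASP partner rose.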

How the data were processed

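Values are the authors' unnormalised counts, deposited for 25628 gene symbols in 6 libraries, with no 0: the smallest value was 1 in every library, so 1 appears to have been added. The submitters' processing notes name bcl2fastq 2.17.1.14, STAR, DESeq2 and the builds mm10 and GRCm38, without roles; the counter and strand setting were not given in the sources used here. Columns were matched to samples by title.

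edgeR 4.0.16 (TMM, filterByExpr, quasi-likelihood F test, group as the only term, R 4.3.3) was run on the values as deposited for all genes, with Benjamini-Hochberg adjustment over 14158 tested genes. CPM are on TMM-scaled sizes, SE is the log2 fold change over the root of F, and lengths are unions of GENCODE M21 exons (GRCm38). Same-numbered libraries deviated together from their group means (correlations 0.769, 0.742 and 0.723). The replicate block is therefore given where it changes the call of a member or of a named other actin gene. With it 2 residual degrees of freedom were left, without it 4. Pair ratios used log2 of CPM plus 0.5. The script was tested on simulated data. No 2 libraries agreed within sampling noise. Members, lists, pairs and the rule for named genes (all members, up to 8 other actin genes with the smallest adjusted p among those called with or without the block, and relatives in pairs) were chosen with earlier results of these data known. The count for 1 group of the other actin genes is not reported here. Older symbols of 3 list genes were matched through RefSeq. Alternatives were DESeq2 1.42.0, its size factors, no filter, 1 taken off each value, other added CPM and leaving out each library.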

Additional observations from a re-analysis of the deposited data

How the results depend on the processing

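The number of calls moved with the replicate block, with DESeq2, with the filter on low counts and with single libraries. Over all genes 308 were lower and 59 higher; with the replicate block 2206 and 1452, with DESeq2 722 and 291, with DESeq2 and the replicate block 1966 and 1436, with no filter on low counts 62 and 4, and between 35 and 242 and between 0 and 26 when 1 library was left out. For the cytoskeleton members, 10 lower and 0 higher became 25 and 2 with the replicate block, 15 and 1 with DESeq2, 25 and 3 with DESeq2 and the replicate block, 3 and 0 with no filter, and between 2 and 10 lower when 1 library was left out, where none was higher. For the other actin genes, 7 lower and 0 higher became 40 and 3 with the replicate block, 14 and 0 with DESeq2, 39 and 4 with DESeq2 and the replicate block, 2 and 0 with no filter, and between 0 and 4 lower when 1 library was left out. The cause of these shifts was not tested. All 10 member calls were kept with the block, DESeq2 with or without it, its size factors in edgeR, and 1 taken off each value.

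Directions turned for genes near 0: Arpc1a (0.04) and Arpc5 (0.12) without untreated replicate 1, Arpc5 (0.01) and Ezr (-0.17) without doxycycline replicate 2, Arpc5 (0.02), Twf1 (0.11) and the Actb to Actg1 ratio (0.09) without doxycycline replicate 3, and Ezr (-0.16) without untreated replicate 3. Wasf1 was at -0.03 with the replicate block, -0.01 with DESeq2 and the block, -0.10 and -0.07 without untreated replicate 3 and doxycycline replicate 1, and -0.15 without doxycycline replicate 2. Over all fits that left out 1 library the ranges were -0.57 to 0.09 for the Actb to Actg1 ratio, -0.20 to 0.04 for Arpc1a, -0.24 to 0.12 for Arpc5, -0.15 to 0.21 for Wasf1, -0.18 to 0.11 for Twf1 and -0.17 to 0.30 for Ezr. No other ratio of a pair turned. Evl, Enah, Pls3 and Myo1f had deposited counts of at most 4, 2, 12 and 40, too few for a precise fold change.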
